A study of Mus musculus with 6 samples.

Results

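The 10 genes described here encode parts of the insulin and insulin-like growth factor (IGF) signalling pathway: the ligand gene Igf1, the receptor genes Insr, Igf1r and Igf2r, the adaptor genes Irs1, Irs2 and Grb10, and the binding protein genes Igfbp4, Igfbp5 and Igfbp7. They were taken by symbol from the deposited table of 57186 genes, and each symbol matched 1 gene. The choice was made with the results of the comparison below known, so the values of the 10 genes are given as a description, with no p-value. Where the text says that the fit over all genes called a member, this repeats the choice and supports nothing. The table holds read counts from bulk RNA-seq of CD45-negative cells of mouse tumours. The tumours grew under the skin of C57Bl/6J mice from MB49, a mouse bladder carcinoma line of male origin, and were taken at 500 mm3. In 3 libraries the injected MB49 cells carried a CRISPR knockout of the Y chromosome (CRISPR Y-KO), and in the other 3 they had a scrambled CRISPR control (CRISPR Y-Scr). Whether either line was a single clone, the sex and age of the mice, and whether the replicates came from separate animals are not given in the sources used here, so error bars and p-values cover no more than how these libraries varied, and that variation may be technical.

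Insulin and IGF-I bind the related receptor tyrosine kinases encoded by Insr and Igf1r, which phosphorylate the docking proteins IRS1 and IRS2. These recruit PI3-kinase, and Akt then acts on mTOR complex 1 and keeps FoxO transcription factors out of the nucleus. The receptor encoded by Igf2r has no kinase and carries IGF-II to lysosomes, secreted binding proteins hold IGFs away from the receptors, and GRB10 is an adaptor that restrains the active receptors.

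The labels were checked with 4 broadly expressed Y-linked genes. Kdm5d, Uty, Ddx3y and Eif2s3y were between 6.60-fold and 13.2-fold lower in Y-KO. Library totals ran from 42040955 to 52951031 counts. Of 17837 genes tested with edgeR's quasi-likelihood test, 2871 (16.1%) passed at a Benjamini-Hochberg adjusted p under 0.05. Leaving out 1 Y-KO library gave 1733 (replicate 1), 1801 (replicate 2) or 6393 (replicate 3) genes, and leaving out 1 Y-Scr library gave 1735, 1043 or 1037 in the same order. Y-KO replicate 3 stood apart within its group: its summed level of 10 pan-leukocyte markers was 1388 CPM, against 3134 and 3171 CPM in the other Y-KO libraries and 3431 to 3650 CPM in Y-Scr. CPM are counts scaled to a common library size with TMM factors. Transcripts of Ptprc, which encodes CD45 itself, stood at 242 CPM in Y-KO against 567 CPM in Y-Scr, in libraries sorted against CD45. Of the markers tested, 3 of 10 pan-leukocyte, 11 of 12 T and NK cell and 5 of 14 fibroblast markers were lower in Y-KO and none of these was higher, while 7 of 12 macrophage markers were higher and 1 was lower. Among 7 epithelial and urothelial markers 3 were higher and 1 was lower, among 9 blood endothelial markers 1 was higher, and none of 4 pericyte and smooth muscle, 1 adipocyte and 3 skeletal muscle markers passed. In bulk RNA, fewer cells of a type and less RNA per cell cannot be told apart.

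Of the 10 genes, 8 had enough counts to enter the fit, which called 4 of them: Irs1 and Igfbp4 had higher values in Y-KO, and Igf2r and Igfbp7 had lower ones. The background share is the 16.1% above, 7.82% higher and 8.27% lower, and nothing is read from the members' count, since they were chosen with this comparison known. With Y-KO replicates 1 and 2 summed and Y-Scr replicates 2 and 3 summed, Irs1 alone of the 4 was called. Irs1 entered the fit through its Y-KO counts alone. Grb10 and Igfbp5 had too few counts in both groups. The values of Y-KO did not overlap those of Y-Scr in the 4 genes called, nor in Grb10 and Igfbp5. Of all genes tested, among which Grb10 and Igfbp5 are not, 37.7% had no overlap, 17.5% with Y-KO above and 20.3% with Y-KO below. Nothing is read from the members' overlaps either, for the same reason. Igf1, Insr, Igf1r and Irs2 overlapped between the groups.

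**Figure D1:**
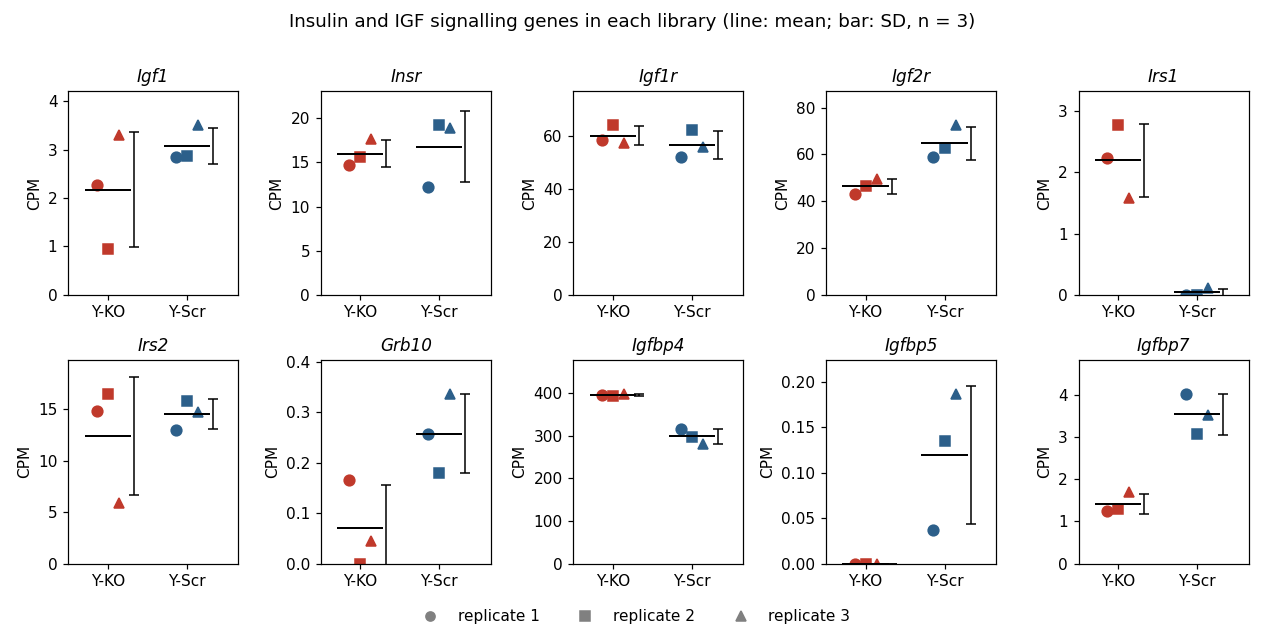
CPM of each of the 10 genes in each library, in Y-KO (red) and Y-Scr (blue); every panel has its own axis from 0, symbols mark the replicate, the line is the group mean and the bar the SD (n = 3). Irs1 is at 1.59 to 2.78 CPM in Y-KO and at most 0.112 CPM in Y-Scr, while Igf1r spans about the same range in both groups.

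Irs1 and Irs2, the genes of the docking proteins, differed in their pattern. Irs1 (ENSMUSG00000055980; chromosome 1, 82210822 to 82269137, GRCm39) had 108, 123 and 70 counts in Y-KO replicates 1, 2 and 3 and 0, 0 and 6 counts in Y-Scr replicates 1, 2 and 3. This is 2.23, 2.78 and 1.59 CPM against 0, 0 and 0.112 CPM. All Y-KO libraries lay far above the Y-Scr libraries, of which only replicate 3 had any count, and Y-KO replicate 3 was the lowest of its group. The fitted log2 fold change was 5.73 (SE 0.96), and 9.70 without Y-Scr replicate 3, where no Y-Scr count is left and the fitted value is no measure of size. The ratio of the summed counts, 301 against 6, was 56.0 after scaling, with an exact 95% counting interval from 25.4 to 153.8. That interval covers counting error only and may be too narrow, since most counts were even and a fragment may have entered once per read. In Y-KO the gene remained a low one, at 2.20 ± 0.594 CPM (SD, n = 3).

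Irs2 (chromosome 8, 11034681 to 11058458) stood at 14.8, 16.5 and 5.88 CPM in Y-KO and at 13.0, 15.8 and 14.7 CPM in Y-Scr. Y-KO replicates 1 and 2 lay at the level of Y-Scr and Y-KO replicate 3 was the lowest of all 6 libraries. The log2 fold change of Irs2 was -0.23 (SE 0.33), and 0.11 (SE 0.14) without Y-KO replicate 3, so its sign rested on that library. Relative to the Y-Scr mean, Irs2 was at 102%, 114% and 40.5% in Y-KO replicates 1, 2 and 3, and the summed pan-leukocyte markers, all 10 of which had counts in both groups, were at 89.1%, 90.1% and 39.4%. Single markers of that list differed. In Y-KO replicates 1 and 2 Ptprc was at 293 and 298 CPM against a Y-Scr mean of 567, and Srgn at 815 and 830 against 647. The summed macrophage markers were at 209%, 209% and 131% in Y-KO replicates 1, 2 and 3, and the T and NK cell markers at 27.9%, 29.6% and 17.7%. The part of leukocyte RNA in the Irs2 values was not tested.

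Irs1 and Irs2 encode proteins of the same family, and their counts can be set against each other within a library. Irs1 made up 13.1%, 14.4% and 21.3% of the counts of both genes in Y-KO replicates 1, 2 and 3, with exact 95% binomial intervals of 10.9% to 15.6%, 12.1% to 16.9% and 17.0% to 26.1%. In Y-Scr replicates 1 and 2 the share was 0%, with upper bounds of 0.519% and 0.521%, and in replicate 3 it was 0.755%, with an interval of 0.277% to 1.64%. These intervals and bounds cover counting error only and may be too narrow, since a fragment may have entered once per read. The share lay above the Y-Scr range in every Y-KO library, and it was highest in Y-KO replicate 3, where Irs2 was low. Per length of the gene, the sum of both was 2.20 ± 0.965 CPM per kilobase in Y-KO against 2.30 ± 0.231 in Y-Scr (SD, n = 3), so that Irs1 stayed the minor docking protein transcript, at 11.9% ± 3.40 of the sum per length in Y-KO.

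The sequences before the RefSeq starts of Irs1 and Irs2 are shown because these related genes differed in their values. Each is the 250 bases upstream of the start, 5′ to 3′ on the gene's strand (minus for both), in the build GRCm38.p6 of the RefSeq table, which is not the build of the counts. The Irs1 window is chr1:82291440-82291689 and the Irs2 window chr8:11008930-11009179. Capitals mark the E-box CACGTG, which reads the same on both strands and is the core site of many basic helix-loop-helix factors.
Irs1: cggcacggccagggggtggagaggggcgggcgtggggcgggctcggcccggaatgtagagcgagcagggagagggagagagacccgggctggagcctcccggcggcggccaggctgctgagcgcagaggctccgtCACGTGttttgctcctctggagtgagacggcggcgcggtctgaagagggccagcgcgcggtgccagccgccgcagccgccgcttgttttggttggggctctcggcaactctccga
Irs2: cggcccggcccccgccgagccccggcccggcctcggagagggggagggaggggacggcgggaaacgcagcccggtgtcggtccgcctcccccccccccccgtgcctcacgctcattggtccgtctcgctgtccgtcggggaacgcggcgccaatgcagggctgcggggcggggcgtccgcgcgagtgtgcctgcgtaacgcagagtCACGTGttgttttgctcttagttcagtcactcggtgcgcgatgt
The E-box began 115 bases before the start of Irs1 and 44 bases before that of Irs2. It was looked for after the sequences had been read, and among all 32851 upstream windows of this length 6.02% held it. Of the 9 members with a RefSeq window, 3 held an E-box, the third being Igf2r with 1 at 48 and 1 at 7 bases before its start. No member's window held the FoxO element TGTTTAC on either strand (3.17% of all windows). The GC box GGGCGG, searched on both strands, was present in 6 of the 9 members and in 32.7% of all windows. The members' windows that held it were 69.2% to 81.2% G and C, against a median of 52.4% over all windows. The 3 windows with an E-box were among them. The shares over all windows are thus not those of windows of like content. TGANTCA, a looser pattern than the AP-1 element, matched in 1 member, Igf1, as TGAATCA, and in 6.75% of all windows. A match is a description of the letters, and all of these windows were read from the reference, not from MB49 cells.

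The receptor tyrosine kinase genes had overlapping values. Igf1r (chromosome 7, 67602575 to 67883416), which encodes the IGF-I receptor, stood at 58.4, 64.0 and 57.3 CPM in Y-KO against 51.7, 62.1 and 55.7 CPM in Y-Scr, with a log2 fold change of 0.08 (SE 0.10), or -0.06 when scaled by library size alone. Insr (chromosome 8, 3172061 to 3329617), which encodes the insulin receptor, stood at 14.7, 15.6 and 17.7 CPM in Y-KO against 12.2, 19.3 and 18.9 CPM in Y-Scr, with a log2 fold change of -0.07 (SE 0.19). The lowest Insr value was that of Y-Scr replicate 1, and without Y-Scr replicate 2 or 3 the log2 fold change was 0.06 and 0.05. Per length, Igf1r transcripts exceeded those of Insr 3.09 ± 0.379 times in Y-KO against 2.84 ± 0.564 times in Y-Scr (SD, n = 3), from 2.41 to 3.48 times over the 6 libraries. The order of the kinase receptor genes was the same in each library.

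Igf2r (ENSMUSG00000023830; chromosome 17, 12901293 to 12988551) was lower in Y-KO, at 43.1, 46.5 and 49.4 CPM against 58.9, 62.9 and 72.6 CPM in Y-Scr. The highest Y-KO library lay below the lowest Y-Scr library. The log2 fold change was -0.48 (SE 0.11), a 1.40-fold difference. It ran from -0.53 to -0.38 when each library was left out, and the call was lost without Y-KO replicate 1 or 2 (log2 fold change -0.44 and -0.49) or without Y-Scr replicate 2 or 3 (-0.49 and -0.38). Within each library Igf2r exceeded Igf1r per length, 1.40 ± 0.136 times in Y-KO against 2.08 ± 0.263 times in Y-Scr (SD, n = 3), and these ratios did not overlap, at 1.31 to 1.56 against 1.83 to 2.35. In Y-KO this order rested on the deposited gene lengths, 9308 bases for Igf2r and 16791 bases for Igf1r. By CPM alone Igf1r was above Igf2r in every Y-KO library and below it in every Y-Scr library. Igf2r encodes the cation-independent mannose 6-phosphate receptor, which also sorts lysosomal enzymes, so its level is not a measure of IGF-II uptake alone.

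The ligand gene Igf1 (chromosome 10, 87694127 to 87772904) was low and uneven, at 2.27, 0.948 and 3.31 CPM in Y-KO against 2.85, 2.87 and 3.51 CPM in Y-Scr. Y-KO replicate 2 was the lowest library and Y-KO replicate 3 lay within the Y-Scr range. The log2 fold change was -0.50 (SE 0.42), -0.14 if Y-KO replicate 2 was left out and -0.93 if Y-KO replicate 3 was. In tissues, fibroblasts and macrophages are known sources of Igf1. The summed level of 14 fibroblast markers was 533 and 523 CPM in Y-KO replicates 1 and 2, 1083 CPM in Y-KO replicate 3 and 1478 to 1503 CPM in Y-Scr, and all 14 had counts in both groups. Of these sums, Dcn alone gave 54.1, 57.6 and 423 CPM in Y-KO replicates 1, 2 and 3. The summed level of 12 macrophage markers was higher in Y-KO, from 837 to 1334 CPM in Y-KO and from 618 to 677 CPM in Y-Scr, with counts for all 12 in both groups. Their part in the Igf1 values was not tested. The insulin genes Ins1 and Ins2 had no count in any library, so their transcripts were not detectable at this depth. A floor of 3 counts per group is 0.0219 CPM over the Y-KO group and 0.0196 CPM over the Y-Scr group. That limit may be too low, since a fragment may have entered once per read. Igf2 also had no count, but its exons share bases with Igf2os on the opposite strand and Gm49394 on the same strand, and reads in shared bases were left out by the counter's defaults, so no limit is given for it.

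**Figure D2:**
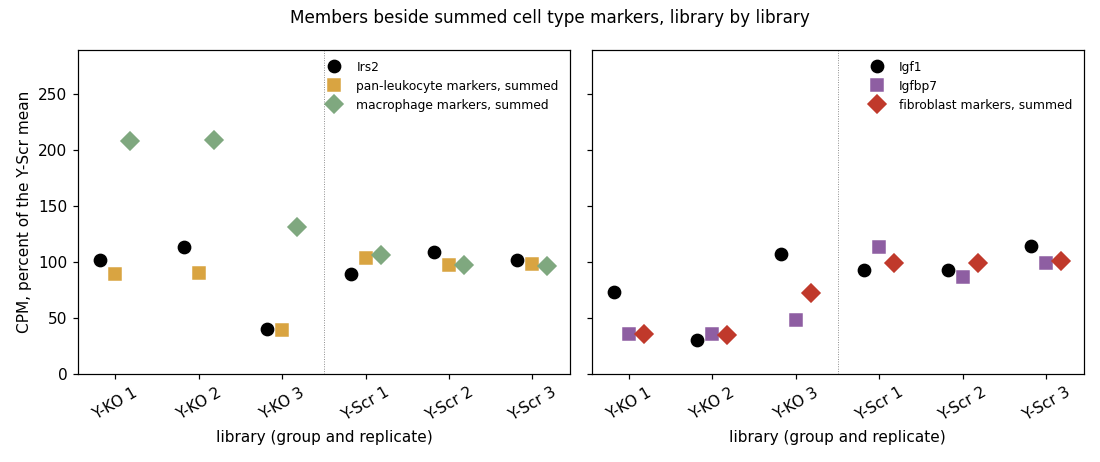
CPM in each library as a percentage of the Y-Scr mean; the left panel shows Irs2 with the summed pan-leukocyte and macrophage markers, the right panel Igf1 and Igfbp7 with the summed fibroblast markers. In Y-KO replicate 3, Irs2 and the pan-leukocyte markers are at 40.5% and 39.4%, and the fibroblast markers are at 72.9% against 35.8% and 35.2% in the other Y-KO libraries.

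Grb10 (chromosome 11, 11880508 to 11988683), which encodes the inhibitory adaptor, was close to the floor, with 8, 0 and 2 counts in Y-KO against 14, 8 and 18 counts in Y-Scr. The highest Y-KO value, 0.165 CPM, lay just below the lowest Y-Scr value, 0.180 CPM. After scaling, the summed counts were 3.58 times as high in Y-Scr, with an exact 95% counting interval from 1.76 to 8.03. All Grb10 counts were even, so this interval, which covers counting error only, may be too narrow.

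The binding protein genes differed in both directions. Igfbp4 (ENSMUSG00000017493; chromosome 11, 98932070 to 98945218), whose product restrains IGF action until proteases cleave it, stood at 396, 395 and 399 CPM in Y-KO against 317, 297 and 282 CPM in Y-Scr. The Y-KO libraries lay within a narrow band above all Y-Scr libraries, Y-KO replicate 3 included. The means were 396 ± 2.43 and 299 ± 17.8 CPM (SD, n = 3), with a log2 fold change of 0.41 (SE 0.07), 0.27 when scaled by library size alone. The call was lost without Y-Scr replicate 2 or 3 (log2 fold change 0.42 and 0.38). Among the 10 genes Igfbp4 was by far the most abundant.

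Igfbp7 (ENSMUSG00000036256; chromosome 5, 77497087 to 77555888), a secreted relative of the binding proteins that is abundant in vessel walls, stood at 1.26, 1.29 and 1.70 CPM in Y-KO against 4.04, 3.07 and 3.53 CPM in Y-Scr. All Y-KO libraries lay below all Y-Scr libraries. The log2 fold change was -1.33 (SE 0.28), a 2.51-fold difference, and the call was lost without Y-Scr replicate 1, 2 or 3 (log2 fold change -1.20, -1.40 and -1.31). Its exons share bases with those of Polr2b on the opposite strand, and strand was not used in counting by the tool's defaults, so reads in the shared bases were left out and the level is uncertain. Relative to the Y-Scr mean, Igfbp7 was at 35.5%, 36.2% and 48.0% in Y-KO replicates 1, 2 and 3 and the summed fibroblast markers at 35.8%, 35.2% and 72.9%. The single fibroblast markers were unlike each other. Of the 14, 7 had all Y-KO values below all Y-Scr values, and 1, Col1a2, had them above. Dcn was at 54.1, 57.6 and 423 CPM in Y-KO replicates 1, 2 and 3 against a mean of 419 CPM in Y-Scr. Pericyte and smooth muscle markers were sparse: 8 of them summed to 1.28 to 4.06 CPM in Y-KO and 8.33 to 8.51 CPM in Y-Scr, with Cnn1 at 0 throughout. The summed level of 10 blood endothelial markers ran from 35.9 to 52.8 CPM in Y-KO and from 49.1 to 53.8 CPM in Y-Scr. The part of these cell types in the Igfbp7 values was not tested. Igfbp5 (chromosome 1, 72897091 to 72914043), often high in fibroblasts and smooth muscle, had 2, 6 and 10 counts in Y-Scr and none in Y-KO. With the Y-KO group set to a floor of 3 counts in all, it was 5.37-fold lower there. All Igfbp5 counts were even and a fragment may have entered once per read, so this value is no firm lower bound.

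Levels can be compared between genes only per length. The lengths are the deposited ones, and which transcripts of a gene were expressed was not examined, so the order of genes depends on these lengths. In CPM per kilobase, Igfbp4 led in both groups, at 89.8 ± 0.551 in Y-KO against 67.6 ± 4.03 in Y-Scr (SD, n = 3), with no overlap with any other member. It was followed in Y-KO by Igf2r (4.98 ± 0.335), Igf1r (3.57 ± 0.214), Irs2 (1.96 ± 0.904), Igfbp7 (1.17 ± 0.206), Insr (1.16 ± 0.111), Irs1 (0.240 ± 0.0649) and Igf1 (0.220 ± 0.120). In that order Irs2 overlapped Igfbp7, Igfbp7 overlapped Insr, and Irs1 overlapped Igf1, while the other neighbours did not overlap. In Y-Scr the order below Igfbp4 was Igf2r (6.96 ± 0.755), Igf1r (3.36 ± 0.311), Igfbp7 (2.94 ± 0.399), Irs2 (2.30 ± 0.230), Insr (1.22 ± 0.291) and Igf1 (0.311 ± 0.0381), with only Igf1r and Igfbp7 overlapping among these neighbours. Irs1 was the lowest of the 10 genes in Y-Scr by its mean and the seventh in Y-KO. At the bottom of the Y-Scr order, close to the floor, Grb10 overlapped Igfbp5 and Igfbp5 overlapped Irs1, so these places are not separated.

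**Figure D3:**
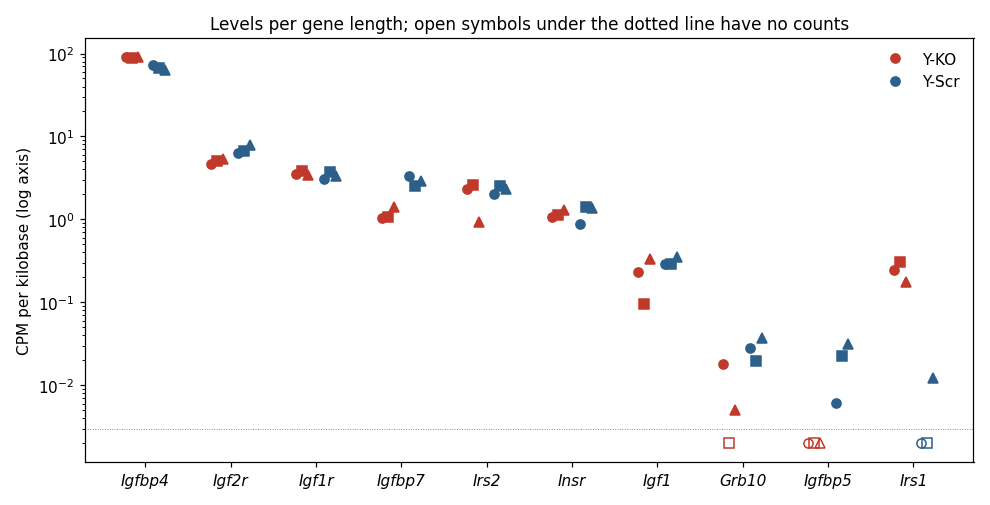
CPM per kilobase of gene length on a log axis for the 10 genes in each library, ordered by the Y-Scr mean, with Y-KO in red and Y-Scr in blue; open symbols under the dotted line are libraries with no counts. Igfbp4 leads in every library. By group means Irs1 is the gene whose place in the order changes most, from 0.00409 CPM per kilobase in Y-Scr to 0.240 in Y-KO, though in Y-Scr its values overlap those of Igfbp5.

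The other binding protein genes are not among the 10, and their p-values are given. The lists of other pathway genes were also chosen with earlier results of these data known, so these p-values are not free of that choice. Igfbp6, whose product prefers IGF-II, rose 2.01-fold in Y-KO, from 122, 100.1 and 99.8 CPM in Y-Scr to 209, 221 and 220 CPM in Y-KO (log2 fold change 1.01, SE 0.10, edgeR adjusted p = 0.000509), and all Y-KO libraries lay above all Y-Scr libraries. Igfbp3, which carries most IGF in blood and is named after its values were seen, fell 3.65-fold to 1.39 ± 0.549 CPM (SD, n = 3; log2 fold change -1.87, SE 0.36, edgeR adjusted p = 0.0106). When Y-Scr replicate 1 or 2 was left out, Igfbp3 no longer passed (edgeR adjusted p from 0.0541 to 0.0653). Igfbp1 and Igfbp2 had no count in any library. Summed per length over Igfbp1 to Igfbp7, binding protein transcripts stood at 286 ± 6.21 CPM per kilobase in Y-KO against 169 ± 15.9 in Y-Scr (SD, n = 3), with no overlap. Igfbp6 made up 68.0% ± 0.650 of this sum in Y-KO against 57.1% ± 1.64 in Y-Scr, and Igfbp4 made up 31.4% ± 0.639 and 40.2% ± 1.62. Igfbp4 thus had a smaller share in Y-KO although its own level was higher. Igfbp7 made up 0.409% ± 0.0662 of the sum in Y-KO against 1.74% ± 0.147 in Y-Scr.

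**Figure D4:**
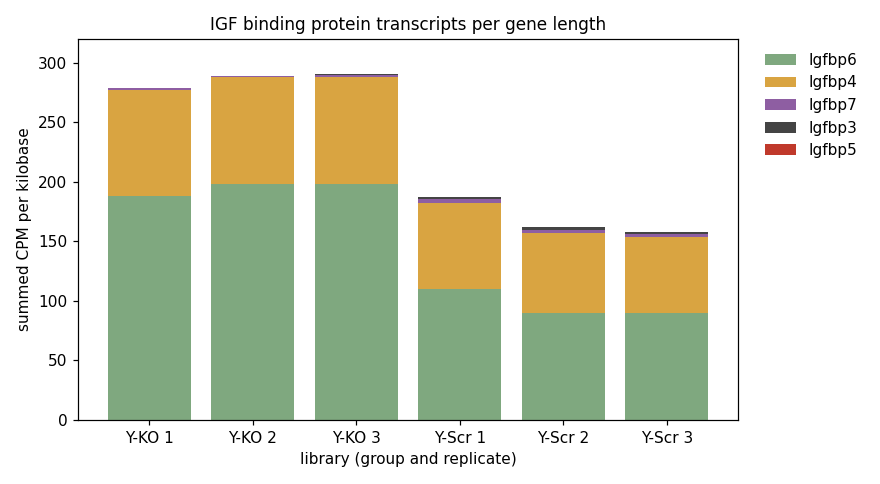
Stacked CPM per kilobase of the IGF binding protein genes in each library; Igfbp1 and Igfbp2 had no counts and are not drawn, and Igfbp5 is too low to be seen. The 3 Y-KO bars stand at 279 to 290 CPM per kilobase and the 3 Y-Scr bars at 158 to 187, and Igfbp6 and Igfbp4 fill nearly all of each.

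Of the genes that act on the binding proteins, Stc1 and Htra1 passed. Stc1, whose product stanniocalcin-1 inhibits the IGFBP-cleaving pappalysins, stood at 0.413, 0.880 and 0.363 CPM in Y-KO against 3.98, 4.76 and 5.87 CPM in Y-Scr, a difference of 8.80-fold (log2 fold change -3.14 with an SE of 0.40, edgeR adjusted p = 0.00164). Htra1, which encodes a secreted serine protease, rose 2.44-fold, being at 10.5 ± 0.633 CPM in Y-KO against 4.29 ± 0.636 (SD, n = 3; edgeR adjusted p = 0.0026). Pappa had no count, and Pappa2, at 1.38 ± 0.582 CPM in Y-KO against 1.46 ± 0.256 CPM in Y-Scr (SD, n = 3), did not pass (log2 fold change -0.08, SE 0.40). Stc2, the stanniocalcin-2 gene, did not pass either (log2 fold change -1.43, SE 1.01).

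Of 101 other pathway genes, 86 could be tested, 9 were higher, 11 were lower and 66 did not pass (edgeR adjusted p under 0.05 over all 17837 genes). These shares, 10.5% higher and 12.8% lower, stand beside 7.82% and 8.27% of all genes, and the median log2 fold change was -0.06 against -0.03 over all genes. Nothing is read from these shares, since the lists were chosen with earlier results of these data known. In place of 20 genes, leaving out 1 Y-KO library gave 13 (replicate 1), 14 (replicate 2) or 38 (replicate 3), and leaving out 1 Y-Scr library gave 12, 7 or 8 in the same order. When scaled by library size alone, 6 were higher and 13 were lower. None of the 3 other ligand genes could be tested, and the receptor-like Insrr did not pass (log2 fold change 0.58, SE 0.63). Of the genes encoding Igf2 mRNA-binding proteins 2 could be tested and neither passed.

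Of 15 receptor adaptors tested, 2 were higher and 1 was lower. Dok1, which encodes a docking protein of mainly blood cells, rose 1.68-fold (edgeR adjusted p = 0.0264). Gab1, an IRS-like docking protein gene, rose 1.33-fold, being at 51.9 ± 2.88 CPM in Y-KO against 39.0 ± 2.86 (SD, n = 3; edgeR adjusted p = 0.0244). Sh2b1, an enhancer of receptor signalling, fell 1.42-fold (log2 fold change -0.51 with an SE of 0.09, edgeR adjusted p = 0.00904). The Dok1 call was lost without any 1 Y-Scr library (edgeR adjusted p from 0.0790 to 0.125), that of Gab1 without any 1 Y-Scr library or Y-KO replicate 2 (from 0.0547 to 0.115), and that of Sh2b1 without Y-Scr replicate 2 or 3 (from 0.0643 to 0.0659). The general adaptor genes Shc1 and Grb2 did not pass, with log2 fold changes of -0.05 each.

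Of 14 PI3-kinase and Akt genes, none rose and 2 fell. Pik3r1, which encodes the p85-alpha regulatory subunit that binds phosphorylated IRS proteins, stood at 36.2, 36.8 and 42.2 CPM in Y-KO against 58.5, 61.9 and 63.4 CPM in Y-Scr (log2 fold change -0.67, SE 0.10, edgeR adjusted p = 0.00303). Pik3cd, the catalytic subunit gene of leukocytes, fell 1.90-fold, being at 77.6 ± 30.1 CPM in Y-KO against 148 ± 3.68 (SD, n = 3; edgeR adjusted p = 0.0434), with Y-KO replicate 3 lowest at 43.0 CPM. That call was lost without Y-KO replicate 1 or any 1 Y-Scr library (edgeR adjusted p from 0.0669 to 0.145). The summed pan-leukocyte markers were lowest in the same library, and 12 T and NK cell markers summed to 211 to 351 CPM in Y-KO against 1165 to 1225 CPM in Y-Scr, with counts for all 12 in both groups; their part in the Pik3cd values was not tested. Akt1 and Akt2 did not pass, with log2 fold changes of 0.12 and -0.04.

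Of 13 negative regulators, 1 was higher and 2 were lower. Trib3, which encodes a pseudokinase that can bind Akt and is induced by stress through Atf4, rose from 40.5, 39.3 and 40.0 CPM in Y-Scr to 110.3, 102.6 and 86.2 CPM in Y-KO (log2 fold change 1.32, SE 0.11, edgeR adjusted p = 0.000189). Inpp4b, a lipid phosphatase gene, fell 2.04-fold (edgeR adjusted p = 0.0157), and Phlpp1, which encodes an Akt phosphatase, fell 1.37-fold (edgeR adjusted p = 0.0328). The Inpp4b call was lost when Y-Scr replicate 2 or 3 was left out (edgeR adjusted p from 0.0741 to 0.0773) and that of Phlpp1 without any 1 library other than Y-KO replicate 3 (from 0.0877 to 0.177).

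Of 17 genes of the mTOR complexes and their effectors, 3 rose and 1 fell. Eif4ebp1, which encodes the translation repressor 4E-BP1, a substrate of mTOR complex 1, rose from 96.6, 88.5 and 83.4 CPM in Y-Scr to 193, 189 and 167 CPM in Y-KO (log2 fold change 1.03, SE 0.10, edgeR adjusted p = 0.000369). Sgk1, a kinase gene, rose 1.80-fold (edgeR adjusted p = 0.0157) and Akt1s1, which encodes the mTOR complex 1 inhibitor PRAS40, rose 1.44-fold (edgeR adjusted p = 0.0218). Rictor, the defining subunit gene of mTOR complex 2 and named after its values were seen, fell 1.33-fold (edgeR adjusted p = 0.0437). The Sgk1 call was lost without any 1 Y-Scr library (edgeR adjusted p from 0.0704 to 0.0741), that of Akt1s1 without any 1 library other than Y-KO replicate 3 (from 0.0516 to 0.0979) and that of Rictor without Y-KO replicate 1 or 2 or Y-Scr replicate 2 or 3 (from 0.105 to 0.201). Akt1s1 shares exon bases with Tbc1d17 on the opposite strand.

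Of 18 FoxO factors and FoxO target genes tested, 1 rose and 3 fell. Foxo1, the best known of these factors in insulin signalling, stood at 20.9, 20.2 and 31.1 CPM in Y-KO against 36.1, 39.2 and 41.1 CPM in Y-Scr (log2 fold change -0.69, SE 0.17, edgeR adjusted p = 0.0278). Bcl2l11, a pro-apoptotic gene, fell 1.60-fold (log2 fold change -0.68 with an SE of 0.10, edgeR adjusted p = 0.0026). Sesn3, a sestrin gene named after its values were seen, fell 2.28-fold, with Y-KO replicate 3 at 88.8 CPM and the other Y-KO libraries at 35.4 and 36.3 CPM (edgeR adjusted p = 0.0390). Sod2, the mitochondrial superoxide dismutase gene, rose 1.43-fold (edgeR adjusted p = 0.0127). The calls of Foxo1 and Sesn3 were lost without any 1 library other than Y-KO replicate 3 (edgeR adjusted p from 0.0815 to 0.136 and from 0.106 to 0.144), and that of Sod2 without Y-KO replicate 1 or Y-Scr replicate 2 or 3 (from 0.0513 to 0.0634). The members of this list moved both ways, and 14 did not pass, among them Cdkn1b (log2 fold change -0.40, SE 0.12, edgeR adjusted p = 0.0541).

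**Figure D5:**
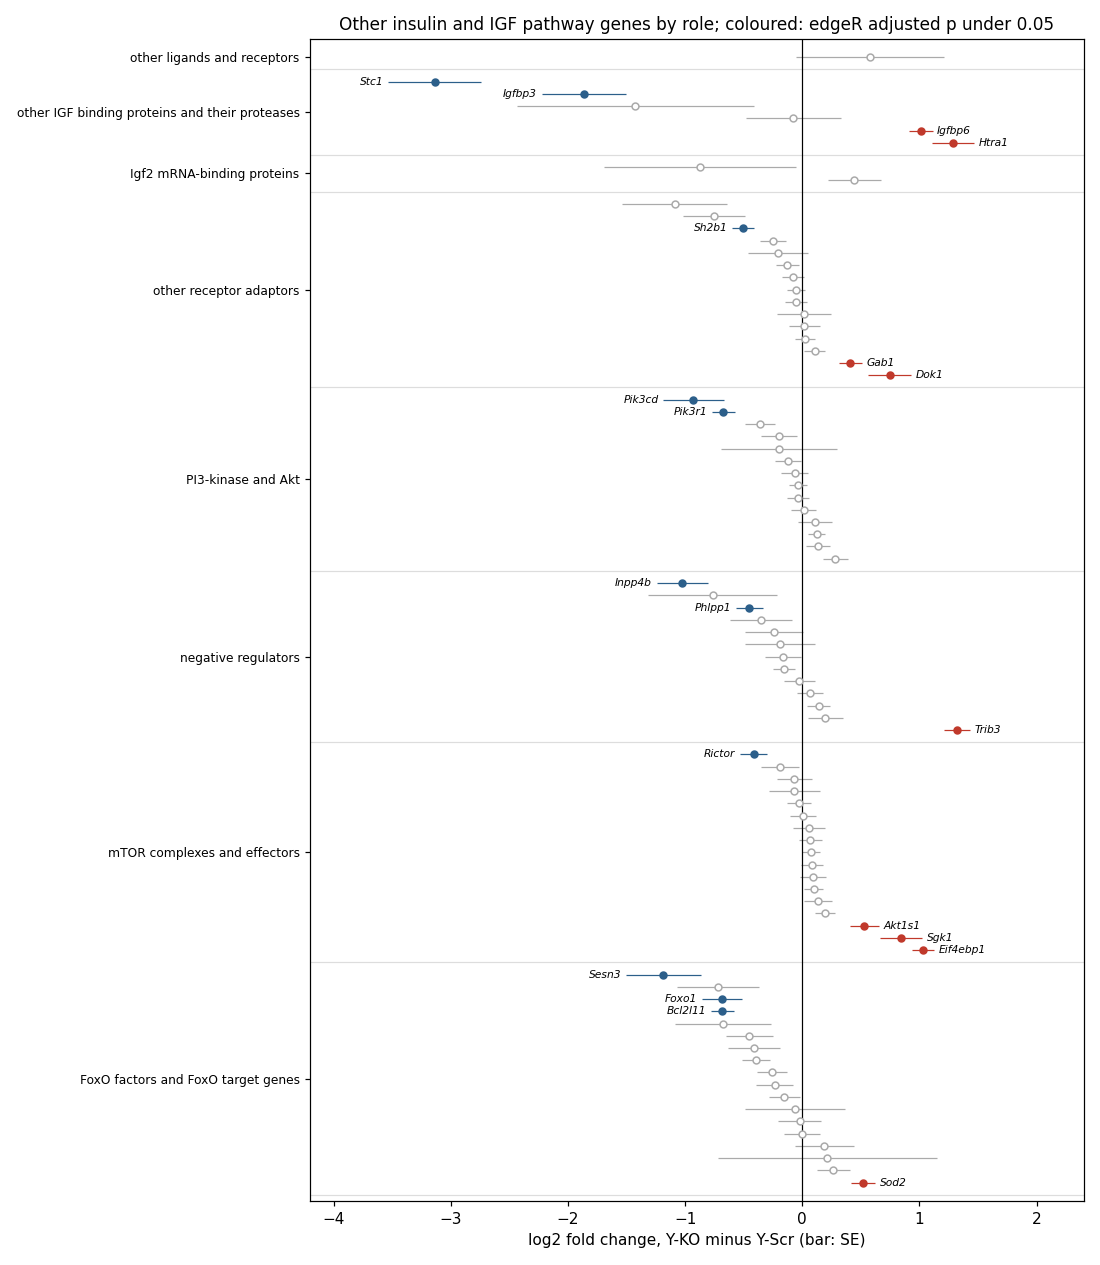
Log2 fold change (Y-KO minus Y-Scr, with its SE) of the 86 other pathway genes tested, grouped by role; coloured points passed edgeR at an adjusted p under 0.05, red higher and blue lower in Y-KO, and open grey points did not. The called genes are spread over 6 of the 8 roles and lie on both sides of 0.

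The patterns most like those of Irs1 and Igf1 over the 6 libraries were looked up among 11590 named genes with at least 2 CPM in the higher group. Pearson's r takes no account of the size of a difference. A prior count of 2 was added before taking log2 CPM. Irs1 had no count in Y-Scr replicates 1 and 2, so its values there were set by that prior count. For Irs1 they were Grid1, Msh6 and Mpzl1, with Pearson's r of log2 CPM of 0.997, 0.994 and 0.990. Their log2 fold changes were 1.47, 0.48 and 0.64, far smaller than the 5.73 of Irs1. For Igf1 they were Tyw3, Mterf1a and Wrb, with r of 0.995, 0.994 and 0.989 and log2 fold changes of -0.31, -0.31 and -0.30, against -0.50 for Igf1. Over the same libraries 306 genes had r above 0.95 with Irs1 and 46 with Igf1.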

How the data were processed

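The authors deposited raw read counts per gene for 6 libraries of poly-A RNA. Per the file headers, the counter was featureCounts 1.5.3, run without further options on GRCm39 genes of Ensembl release 112. Per the submitters' processing notes, FastQC 0.12.1, MultiQC 1.13, Trimmomatic 0.39 and STAR 2.5.2b were also used. Other values of the deposited table are gene lengths in bases. By the counter's defaults, strand was not used, reads and not pairs were counted, and reads fitting several genes were dropped. Of the counts from 2 to 20, between 80.3% and 82.3% per library were even.

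Symbols came from an older mouse annotation by gene ID (51880 of 57186 genes, and all listed symbols). Groups and replicates came from the sample titles. edgeR 4.0.16 in R 4.3.3 (filterByExpr with a minimum count of 10 and total of 15, TMM, quasi-likelihood, group alone) was fitted to all genes, with Benjamini-Hochberg adjustment over 17837 genes. The SE is the log2 fold change divided by the square root of F. The fit was tested on simulated data. The members and lists were chosen with earlier results of these data known. The text names the 10 members, up to 3 called genes of each role with the smallest p, Y-linked and marker genes, and the 3 genes most like Irs1 and Igf1; others, among them those that did not pass, were chosen after their values were seen. Alternatives were a replicate block, DESeq2 1.42.0, limma-voom 3.58.1, other scalings and filters, halved counts, sums of the library pairs an earlier analysis had found close, and leaving out each library. Plots used matplotlib 3.10.9. Protein sequences were not used here.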

Additional observations from a re-analysis of the deposited data

How the results depend on the processing

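Groups of 3 libraries limit the precision of every value. With Y-KO replicates 1 and 2 summed and Y-Scr replicates 2 and 3 summed, 496 genes passed, 1 of the 10 members (Irs1) and 4 of the other pathway genes (Igfbp6, Stc1, Trib3 and Eif4ebp1). Leaving out each library gave between 1037 and 6393 genes, 1 to 4 members and 7 to 38 other pathway genes. The 4 Y-linked genes stayed lower in each of the 15 alternatives. The members were chosen with this comparison known, so their calls under these settings support nothing. Summing pairs or leaving out a library leaves fewer samples, and the cause of these changes was not tested. Scaling by library size alone gave 730 genes higher and 2255 lower, in place of 1395 and 1476, with a median over all genes of -0.17 on the log2 scale in place of -0.03. Gab1, Dok1 and Akt1s1 then did not pass. With the replicate number as a block (replicate block) edgeR called 2066 genes, 4 members and 17 other pathway genes, with Gab1, Dok1 and Rictor lost. DESeq2 did not call Sesn3. Deviations of same-numbered libraries from their group means did not run together (correlations over genes of -0.00835, 0.0049 and -0.0145), and no Y-KO library correlated best with its own number, so the numbers are not taken as pairs. The other settings kept the counts within 1.5 times those reported.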
